A study of Rattus norvegicus with 65 samples.

Results

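A set of 48 genes of DNA replication and mitosis, among them 2 cyclins of the G1 phase, was followed through rat mammary tumors and their serial transplants. The genes were chosen by name: 25 act in mitosis, 21 in DNA replication or the supply of its nucleotides, and 2 (Ccnd1 and Ccne1) encode G1 cyclins. Of the 48, 38 had a probe set annotated to them alone, and 36 of these were bright enough to be tested, beside 8499 tested genes in all. The 36 comprised 16 mitosis genes, 18 replication genes and both G1 cyclins. Kif11, Kif23, Prc1, Tpx2, Nusap1, Cenpa, Cenpf, Ttk and Cdc6 had no probe set with their symbol, and the probe set of Rrm2 was annotated to Rrm2l1 as well, so none of these 10 has a value here. Mad2l1 and Tyms were dim and were not tested.

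The study raised mammary tumors in rats with a carcinogen and passed each tumor through syngeneic hosts, and its stated interest was in tumors that differ in invasion and metastasis. Each of 65 Affymetrix arrays held RNA of 1 tumor, from 11 lines of descent (called series 10, 13, 17, 19, 25L, 25R, 32, 33, 34, 36 and 42; 25L and 25R are labelled left and right) and 6 generations: 11 primary tumors, 11 tumors at each of transplants 1 to 4, and 10 at transplant 5. No transplant 5 array of series 10 enters this work (not analysed here). Strain, carcinogen, age and passage times are not given in the sources used here, and no invasion or metastasis score of single tumors was used here. All groups share the carcinogen, and transplants differ from primary tumors both in generation and in growing from an implant. Tumors of a line are successive passages, and the labels do not state whether any tumors share a host. The p-values rest on the spread left between these tumors once series and generation are fitted. They do not measure how a change varies from line to line. With the line as the unit (1 value per series), 2 of the 8 genes called below over all transplants remained, and 1 of the 9 at transplant 5. Whether series 25L and 25R came from 1 animal is not stated, and they count as separate lines here. With both joined as 1 series in the fit, 8 genes were called over all transplants and 9 at transplant 5, the same numbers as below. Levels are log2 of the deposited intensity after the arrays were scaled to an equal median, with a floor at 5.31 on the log2 scale, below which values have no order. Differences are log2 differences with their standard error (SE), estimated within series.

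Cells that divide copy their DNA in S phase and separate it in mitosis. The MCM helicase opens the duplex, PCNA with its loader RFC holds the polymerases on DNA, and ribonucleotide reductase and thymidine kinase supply nucleotides. Later, CDK1 with cyclin B drives entry into mitosis, and the anaphase-promoting complex with CDC20 ends it. Replication genes are known targets of E2F factors, whereas many mitosis genes carry CCAAT boxes bound by NF-Y and a cell cycle homology region (CHR) bound by the DREAM and MuvB complexes. In a tumor, the RNA of both groups depends on the share of cells in cycle as well as on their content per cell, and in bulk RNA fewer cells of a type and less RNA per cell cannot be told apart.

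The promoters of 4 genes are shown because these were, among the genes that rose in the transplants and hold a searched motif, the 2 of mitosis and the 2 of replication with the smallest adjusted p. The 250 bases before each RefSeq start site are given 5′ to 3′ on the gene's strand (assembly GRCr8), with matches in capitals.
Ccnb1 (chr2:33655226-33655475, minus strand): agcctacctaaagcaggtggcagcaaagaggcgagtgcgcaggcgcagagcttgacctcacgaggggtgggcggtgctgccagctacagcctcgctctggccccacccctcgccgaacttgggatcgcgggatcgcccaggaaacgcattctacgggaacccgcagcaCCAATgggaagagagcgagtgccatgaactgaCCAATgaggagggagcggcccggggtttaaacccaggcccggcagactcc
Cks2 (chr17:13727520-13727769, minus strand): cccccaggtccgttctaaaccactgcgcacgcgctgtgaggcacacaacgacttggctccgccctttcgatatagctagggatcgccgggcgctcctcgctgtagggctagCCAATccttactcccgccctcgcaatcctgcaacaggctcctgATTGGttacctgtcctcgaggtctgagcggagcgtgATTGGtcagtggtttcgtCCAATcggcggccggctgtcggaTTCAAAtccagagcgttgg
Rrm1 (chr1:166235654-166235903, plus strand): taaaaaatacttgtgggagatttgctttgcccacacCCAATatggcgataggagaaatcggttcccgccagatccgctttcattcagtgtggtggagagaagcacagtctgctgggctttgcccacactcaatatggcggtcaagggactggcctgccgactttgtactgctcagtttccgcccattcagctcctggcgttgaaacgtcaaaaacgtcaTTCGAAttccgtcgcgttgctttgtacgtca
Mcm6 (chr13:42404353-42404602, minus strand): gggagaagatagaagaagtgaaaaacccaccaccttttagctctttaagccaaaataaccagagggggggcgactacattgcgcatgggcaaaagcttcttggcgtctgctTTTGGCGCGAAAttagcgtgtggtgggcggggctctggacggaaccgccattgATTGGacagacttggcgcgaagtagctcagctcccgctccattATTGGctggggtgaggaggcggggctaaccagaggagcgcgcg
The capitals mark CCAAT or its reverse ATTGG, the CHR letters TTTGAA and its variant TTCGAA on either strand, and the E2F letters. These were TTTCCCGC with the variants TTTCGCGC and TTTGCCGC and also the variant TTTGGCGC, likewise on either strand. Ccnb1 held CCAAT at 82 and 50 bases before the start. Cks2 held 4 CCAAT boxes and a CHR match 19 bases before the start. Rrm1 held a CHR match 31 bases and a CCAAT box 214 bases before the start. In Mcm6, 2 overlapping E2F matches lay 139 and 135 bases before the start, with CCAAT boxes at 86 and 43.

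A promoter entry was found for 40 of the 48 genes (none for Ube2c, Aurkb, Racgap1, Tpx2, Ccnd1, Mcm4, Cdc6 and Rrm2). CHR letters stood in 12 of 21 mitosis promoters (57.1%), in 4 of 18 replication promoters (22.2%) and in 11.7% of the promoters of 7109 tested genes. CCAAT stood in 85.7% of the mitosis promoters, 55.6% of the replication promoters and 35.5% of those of all tested genes. The E2F letters were in 1 mitosis promoter, that of Cdk1 (4.76%), in 7 replication promoters (38.9%), those of Mcm2, Mcm5, Mcm6, Mcm7, Gins1, Pola1 and Tyms, and in 3.22% of those of all tested genes. CHR and CCAAT stood together in 52.4% of the mitosis, 16.7% of the replication and 4.63% of all tested promoters. A match describes letters in this window, and binding was not measured. Other forms of these motifs were not searched, so a promoter without a match may still hold one.

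Several arrays and lines stood apart and touch the results. The transplant 5 array of series 32 had a median intensity of 96.1 before scaling, against 143.2 to 176.5 on the other arrays. After scaling, its 12 luminal epithelium markers summed to an intensity of 1513, and its fibroblast and T and NK cell sums, 62430 and 7131, were the highest of the 65 arrays. On all 6 arrays of series 42, including the primary tumor, the luminal sum was 794 to 858, and most markers of the labelled mammary epithelium were at or near the floor: Krt18, Krt19, Cldn3, Cldn4 and Cldn7 were at it on every one of those arrays. Exceptions on the luminal list were Elf3, at a log2 level of 8.02 to 8.37 (8.46 to 9.61 on the 59 other arrays), and Prom1, at 6.28 to 6.66. Of the basal list, Tp63 was at the floor on all 6 arrays, Krt5 at 5.66 to 6.24 and Acta2, also a smooth muscle gene, at 8.54 to 9.72. Epcam, an epithelial adhesion molecule, was at a log2 level of 5.31 to 6.00 there, with a median of 11.27 on the 59 other arrays. In series 34 the luminal sum was 24140 in the primary tumor and 928 at transplant 5. The transplant 1 array of series 19 had low mitosis genes with a luminal sum of 15500, within the range of its series. Results below rest on all 65 arrays unless stated. For part of them a value without the transplant 5 array of series 32 or the transplant 1 array of series 19 is given too. Other results that these arrays may move are given with all arrays only.

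Transplants carried more RNA of part of the set than the primary tumors they came from. With limma's moderated test and Benjamini-Hochberg adjustment over the 8499 genes, 8 of 36 genes rose in the mean of transplants 1 to 5 against the primary tumor and 0 fell (22.2% called higher, against 4.44% of all genes tested). The 8 were Mki67, Top2a, Ccnb1, Cks2 and Racgap1 of mitosis (5 of 16) and Mcm6, Rrm1 and Tk1 of replication (3 of 18). The fitted difference was above 0 for 35 of 36 genes, with a median of 0.38 for mitosis, 0.18 for replication and 0.01 for all tested genes. At an unadjusted p under 0.05 there were 13 of 16 mitosis and 7 of 18 replication genes, and 2162 of 8499 in all.

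**Figure D1:**
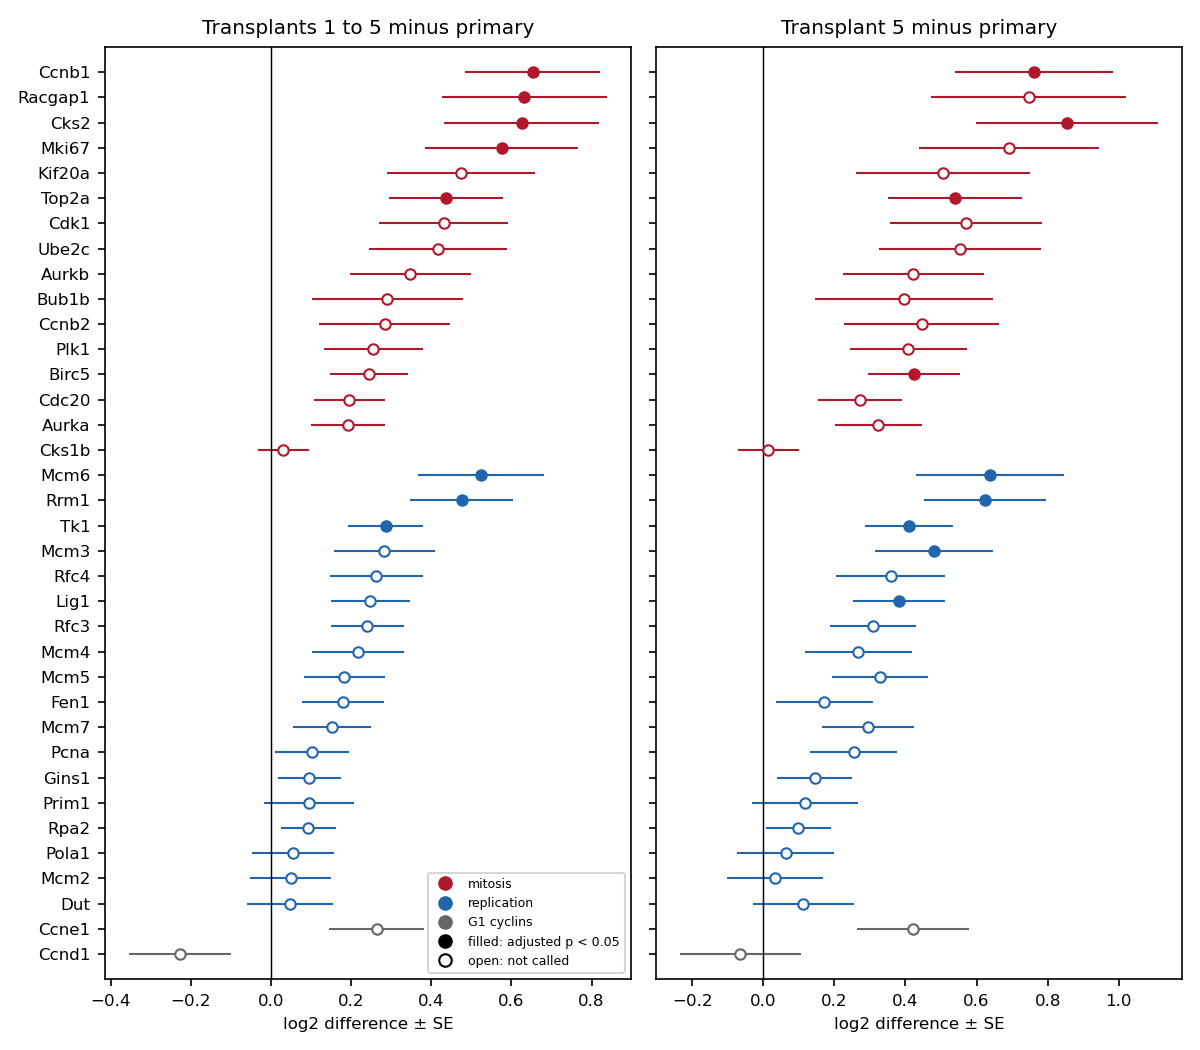
Log2 difference (x axis, with SE) of each of the 36 tested genes (y axis), for transplants 1 to 5 against the primary tumor on the left and transplant 5 against the primary tumor on the right. Filled points had an adjusted p under 0.05: 8 genes on the left and 9 on the right, and only Ccnd1 lies left of 0.

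Mki67, the nuclear protein used in pathology to mark cycling cells, had log2 levels from 6.56 to 8.72 (median 7.51) in the 11 primary tumors. In the 54 transplants its levels ran from 5.31, the floor, to 9.37 (median 8.09). The ranges overlapped, and the transplant at the floor was the transplant 5 tumor of series 32. Within series Mki67 rose by 0.58 ± 0.19 (SE, 1.49-fold, adjusted p = 0.0454, limma), and the transplants' mean was above the primary tumor in 10 of 11 series. Top2a, the topoisomerase that untangles sister chromatids, had levels from 7.56 to 9.03 (median 8.32) in primary tumors and 7.25 to 9.79 (median 8.84) in transplants. It rose by 0.44 ± 0.14 (adjusted p = 0.0416), in 8 of 11 series, and its other probe set differed by 0.67 ± 0.20. The size of the Mki67 change differed widely between lines, from 1.44 in series 13 and 1.41 in series 25R to 0.08 in series 34 and -0.51 in series 32. In series 25R it went from 7.29 in the primary tumor to 8.65, 9.37, 9.30, 8.01 and 8.15 in transplants 1 to 5. In series 32 it stayed between 7.47 and 7.78 until transplant 4 and was at the floor at transplant 5.

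Ccnb1, the cyclin that activates CDK1, rose in the transplants by its brightest probe set. Its level was 6.63 to 9.05 (median 7.63) in primary tumors and 6.48 to 9.76 (median 8.48) in transplants. The lowest transplant was transplant 1 of series 19 and the highest transplant 5 of series 34, and the groups overlapped. The rise was 0.65 ± 0.17 (1.57-fold, adjusted p = 0.00882), in 9 of 11 series. A second Ccnb1 probe set of nearly the same mean level (8.275 against 8.278) differed by 0.27 ± 0.12 and correlated with the first at r = 0.84 over the arrays. Which of both was brightest changed with the setting, and the call was lost where the second was read.

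Cdk1, the kinase of mitotic entry, was at 8.12 to 9.66 (median 8.95) in primary tumors and 7.55 to 10.39 (median 9.40) in transplants, with a difference of 0.43 ± 0.16 that missed the threshold (adjusted p = 0.0779). Ccnb2, the other mitotic B-type cyclin here, differed by 0.28 ± 0.16. The close paralogs Cks1b and Cks2 encode small subunits that bind cyclin-dependent kinases. Cks2 had levels from 7.51 to 9.79 (median 8.44) in primary tumors and 6.96 to 10.74 (median 9.11) in transplants, and rose by 0.63 ± 0.19 (adjusted p = 0.0319), in 10 of 11 series. Cks1b was at 8.78 to 9.65 (median 9.24) and 8.23 to 9.92 (median 9.13), a difference of 0.03 ± 0.06 (adjusted p = 0.814). Per series, the Cks2 change ran from -0.04 in series 34 to 1.65 in series 25R, and the Cks1b change from -0.28 in series 25L to 0.19 in series 42. The difference between the paralogs was not tested.

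Among the other mitosis genes, Racgap1, which acts at the midzone in cytokinesis, was at 6.77 to 8.79 (median 7.43) in primary tumors and 5.31 to 9.96 (median 8.25) in transplants. It rose by 0.63 ± 0.21 (adjusted p = 0.0423), in 10 of 11 series, and its lowest transplant was again the transplant 5 tumor of series 32, at the floor. Kif20a, a kinesin of the midzone, differed by 0.47 ± 0.18 (adjusted p = 0.0917). Of the partners of the anaphase-promoting complex, the ubiquitin-conjugating enzyme Ube2c differed by 0.42 ± 0.17 (adjusted p = 0.11) and the activator Cdc20 by 0.20 ± 0.09 (adjusted p = 0.155). The Aurora kinases Aurka and Aurkb, the Polo kinase Plk1 and survivin (Birc5) differed by 0.19 to 0.35 with adjusted p between 0.102 and 0.182, and the spindle checkpoint kinase Bub1b by 0.29 ± 0.19. Of these genes, none but Racgap1 passed the threshold over all transplants.

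Of 7 tested genes of helicase loading and activation, 1 rose. Mcm6, a subunit of the replicative helicase, was at 6.54 to 8.70 (median 7.15) in primary tumors and 6.27 to 9.41 (median 7.95) in transplants. It rose by 0.52 ± 0.16 (1.44-fold, adjusted p = 0.0252), in 10 of 11 series. Series 33 was the exception, at -0.36, while series 32 had the largest Mcm6 change, 0.93, beside its low mitosis genes. The other subunits did not pass: Mcm3 differed by 0.28 ± 0.13, Mcm4 by 0.22 ± 0.11, Mcm5 by 0.18 ± 0.10, Mcm7 by 0.15 ± 0.10 and Mcm2 by 0.05 ± 0.10. Mcm2 itself had levels from 7.87 to 8.70 (median 8.10) in primary tumors and 6.42 to 8.86 (median 8.27) in transplants, and its groups overlapped almost throughout. Gins1, a subunit of the GINS part of the active helicase, differed by 0.10 ± 0.08.

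At the replication fork, 0 of 8 genes passed over all transplants with limma, and 3 had an unadjusted p under 0.05. Pcna, the sliding clamp, was at 10.06 to 10.84 (median 10.33) in primary tumors and 9.40 to 11.57 (median 10.45) in transplants, a difference of 0.10 ± 0.09 (adjusted p = 0.523). The largest differences were those of the clamp loader subunits Rfc4 (0.26 ± 0.12) and Rfc3 (0.24 ± 0.09) and of the ligase Lig1 (0.25 ± 0.10). The flap nuclease Fen1 differed by 0.18 ± 0.10, and the polymerase alpha and primase subunits Pola1 and Prim1 and the single-strand binding subunit Rpa2 by 0.06 to 0.10.

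Of 3 tested genes of nucleotide supply, 2 rose. Rrm1, the large subunit of ribonucleotide reductase, was at 6.67 to 8.66 (median 7.25) in primary tumors and 6.87 to 9.26 (median 8.01) in transplants, with overlap. It rose by 0.48 ± 0.13 (1.39-fold, adjusted p = 0.0134), in 9 of 11 series, and its change ran from 1.05 in series 19 to -0.19 in series 34. Tk1, the thymidine kinase of S phase, was at 7.69 to 8.86 (median 8.46) and 7.90 to 9.30 (median 8.68), and rose by 0.29 ± 0.09 (adjusted p = 0.0423), in 8 of 11 series. Dut, which removes dUTP, differed by 0.05 ± 0.11. The dim Tyms, thymidylate synthase, was at 5.48 to 6.13 in primary tumors and 5.31 to 7.07 in transplants, with 3 transplants at the floor, and the dim checkpoint gene Mad2l1 at 5.40 to 6.62 and 5.31 to 7.16.

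The G1 cyclins differed in sign from each other and neither passed. Ccnd1, cyclin D1, which couples growth signals to CDK4 and CDK6, was at 9.96 to 11.81 (median 11.26) in primary tumors and 9.80 to 12.05 (median 10.91) in transplants, a difference of -0.23 ± 0.13 (adjusted p = 0.262), and was higher in the transplants of 3 of 11 series. Its other probe sets gave -0.34 ± 0.16 and -0.34 ± 0.15. Ccne1, cyclin E1, which activates CDK2 at the entry into S phase, was at 7.44 to 8.55 (median 8.03) and 7.43 to 10.15 (median 8.17), a difference of 0.26 ± 0.12 (adjusted p = 0.144). The value of 10.15 was that of the transplant 5 tumor of series 32, in which 10 of 16 mitosis genes stood far below the other transplant 5 tumors.

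The 8 calls changed in number with the lines in the fit. They numbered 4 without series 10 or series 36, and 2 without series 13, 17, 25L, 25R or 42, and Rrm1 was called in each of the 11 fits that left out a series. They also numbered 0 without the series block, 2 with 1 value per series, 2 without rescaling, and 1 with array weights or with the Gapdh 3′ to 5′ ratio, a measure of RNA integrity, in the fit. For these fits the share of all genes called is not set beside the counts. A loss particular to this set is therefore not shown. Without series 33, 34, 36 or 42 Ccnb1 was read from its second probe set. Its loss there cannot be told apart from that switch. Without the transplant 5 array of series 32, 12 of 36 genes rose (5.12% of all genes), Cdk1, Kif20a, Rfc3 and Lig1 joining the 8, as 7 mitosis and 5 replication genes. Without the transplant 1 array of series 19, 9 rose, Cdk1 being added, and the share of all genes is not given for that fit.

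Generation by generation, against the same primary arrays, the number of genes that passed was 0 at transplants 1, 2 and 3, 4 at transplant 4 and 9 at transplant 5, all higher. The share of all genes called higher was 0% at transplant 1, 0.635% at transplant 2, 0.847% at transplant 3, 2.81% at transplant 4 and 7.37% at transplant 5. At an unadjusted p under 0.05 (limma), 3, 13, 8, 19 and 25 of the 36 genes passed in turn. The genes called at transplant 4 were Ccnb1 (0.79 ± 0.22), Cks2 (0.80 ± 0.25), Mcm6 (0.64 ± 0.20) and Rrm1 (0.55 ± 0.17). Those at transplant 5 were Top2a, Ccnb1, Cks2 and Birc5 of mitosis and Mcm3, Mcm6, Lig1, Rrm1 and Tk1 of replication. For Ccnb1 the difference was 0.45, 0.76, 0.50, 0.79 and 0.76 at transplants 1 to 5 at an SE of 0.22. The count for transplants 1 to 4 was 0 without series 25R or 42, 1 without series 10, 17, 25L or 32, 2 without series 13, 19, 33 or 34, and 7 without the transplant 5 array of series 32. Shares of all genes called in these fits are not given here. The 5 comparisons share the primary tumors and are not independent.

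In transplant 5, Cks2 had levels from 7.42 to 10.74 (median 9.36), against 7.51 to 9.79 (median 8.44) in the primary tumors. It rose by 0.85 ± 0.26 (1.81-fold, adjusted p = 0.0206), in 9 of 10 series. Rrm1 was at 7.18 to 8.97 (median 8.06) and rose by 0.62 ± 0.17 (adjusted p = 0.0121), and Birc5 was at 8.0 to 8.99 (median 8.46), against 7.69 to 8.59 (median 8.08) in primary tumors, and rose by 0.42 ± 0.13 (adjusted p = 0.0231), in 10 of 10 series. Birc5 was the only one of the 9 above its own primary tumor in every series, and its highest transplant 5 value was that of series 32. Mcm3 was at 7.33 to 9.27 (median 7.95) at transplant 5 and 6.96 to 8.36 (median 7.54) in primary tumors, and rose by 0.48 ± 0.17 (adjusted p = 0.0437). Lig1 was at 7.004 to 9.07 (median 8.13) and 7.08 to 8.31 (median 7.76), and rose by 0.38 ± 0.13 (adjusted p = 0.0385). In both genes series 34 was highest and series 32 lowest at transplant 5, and the groups overlapped. Ccnb1 rose by 0.76 ± 0.22, Top2a by 0.54 ± 0.19, Mcm6 by 0.64 ± 0.21 and Tk1 by 0.41 ± 0.12, with adjusted p of 0.0178, 0.046, 0.0324 and 0.021.

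Without the transplant 5 array of series 32, 16 of 36 genes rose at transplant 5 (6.07% of all genes), as 9 of 16 mitosis and 7 of 18 replication genes. Mki67, Ccnb2, Cdk1, Ube2c, Kif20a, Racgap1, Rfc3 and Rfc4 entered, and Birc5 fell out (0.34 ± 0.13, adjusted p = 0.0728). Mki67 then rose by 0.98 ± 0.21 (1.97-fold, adjusted p = 0.0025), against 0.69 ± 0.25 with that array, Racgap1 by 1.03 ± 0.24 and Cks2 by 1.02 ± 0.25. The difference of Ccne1 was 0.19 ± 0.11 without the array and 0.42 ± 0.16 with it. Across settings, the 9 calls became 1 without series 13, 4 without series 17 or 34, 5 without series 42 and 18 without series 32, and 11 without the transplant 1 array of series 19, which added Cdk1 and Racgap1. They became 0 without the series block, without rescaling or with array weights, 1 with 1 value per series and 5 with the Gapdh ratio. The share of all genes called is not set beside the counts across settings, so a loss or gain particular to this set is not shown.

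A steady course over transplants 1 to 5 was not detected in the 36 genes. For 0 of 36 genes did the slope per transplant pass (6 at an unadjusted p under 0.05), against 2.04% of all genes with a slope upward. The largest slope was that of Cks2, 0.12 per transplant (adjusted p = 0.2). In the test of any difference among the 6 generations, 0 of 36 passed (7 unadjusted, 4.79% of all genes called), and Ccnb1 was closest (adjusted p = 0.0696). Without the transplant 5 array of series 32, Mki67 (adjusted p = 0.0443), Ccnb1 (adjusted p = 0.0287) and Racgap1 (adjusted p = 0.0486) passed this test, with 4.66% of all genes, and without the transplant 1 array of series 19, 1 gene passed.

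**Figure D2:**
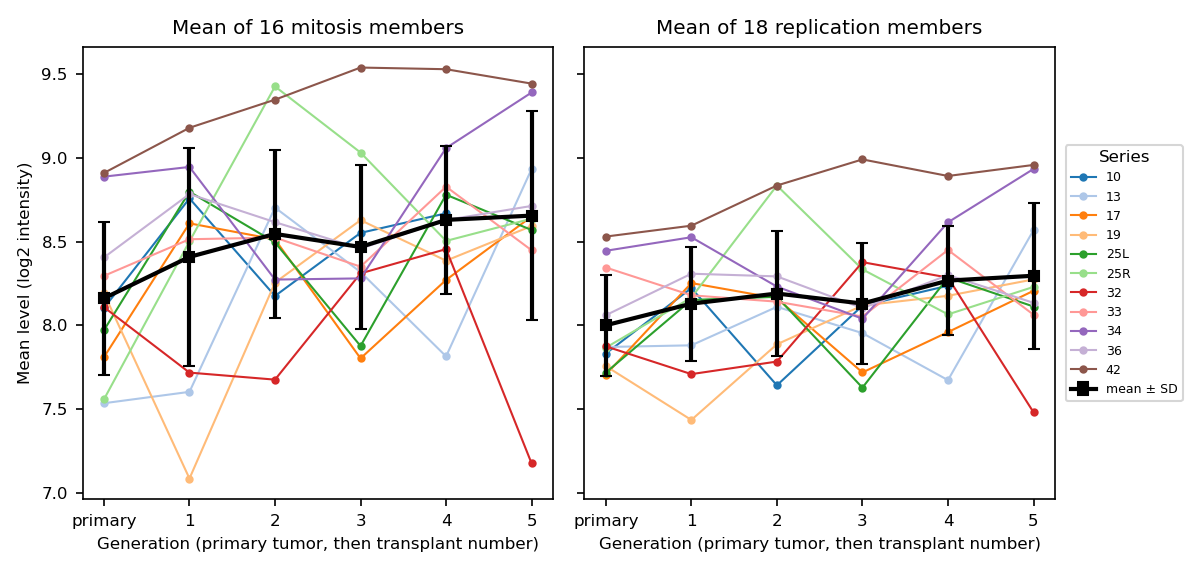
Mean log2 level of the 16 mitosis genes (left) and 18 replication genes (right) on each array, by generation (x axis), with 1 colored line per series and the mean ± SD over series in black. The mitosis mean went from 8.16 ± 0.46 in primary tumors to 8.66 ± 0.62 at transplant 5, and series 32 at transplant 5 and series 19 at transplant 1 lie lowest.

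The mean shift was larger for mitosis than for replication genes, and so was its spread between lines. Per series, the mean of the 16 mitosis genes in the transplants minus the primary tumor was 0.38 ± 0.42 (SD, n = 11), with 8 of 11 series above 0. For the 18 replication genes it was 0.20 ± 0.18, with 10 of 11 series above 0. The difference between both, 0.18 ± 0.33, was above 0 in 8 of 11 series and ran from -0.29 in series 32 to 0.80 in series 25R, so it was smaller than its own spread. No test was made, since the genes were chosen with earlier results known. Without the transplant 5 array of series 32 and the transplant 1 array of series 19, the shifts were 0.42 ± 0.38 for mitosis (9 of 11 series above 0) and 0.22 ± 0.18 for replication. Both arrays were transplants low in mitosis genes, so leaving them out could only raise the mitosis shift. No shift without a primary array was taken.

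The largest mitosis shift was in series 25R, from 7.56 in the primary tumor to a mean of 8.82 in its transplants, a difference of 1.26 beside 0.46 for replication. Series 13 followed with 0.74 and 0.17. Mitosis genes were lower in the transplants of series 32 (-0.24) and series 34 (-0.10) and near 0 in series 19 (-0.002), while in series 33 replication genes were lower (-0.17) and mitosis genes higher (0.24). Without transplant 1 the mitosis difference of series 19 was 0.27, and without transplant 5 that of series 32 was -0.07. Every difference per series subtracts 1 primary array, so the large shifts rest on 1 array too. The primary array of series 25R had a mitosis mean of 7.56, beside 8.50 to 9.43 in its transplants. It was 1 of the 2 arrays farthest out in mitosis genes once series means were removed. At transplant 5 the mitosis mean was above the primary tumor in 9 of 10 series (0.49 ± 0.62) and the replication mean in 8 of 10 (0.28 ± 0.36). Series 32 stood at -0.93 and -0.39, and series 13 at 1.40 and 0.70. Without series 32, the transplant 5 shifts were 0.65 ± 0.40 (SD, n = 9; 9 of 9 series above 0) and 0.35 ± 0.29 (8 of 9), and in the fit without that array the median over genes was 0.65 for mitosis and 0.35 for replication.

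**Figure D3:**
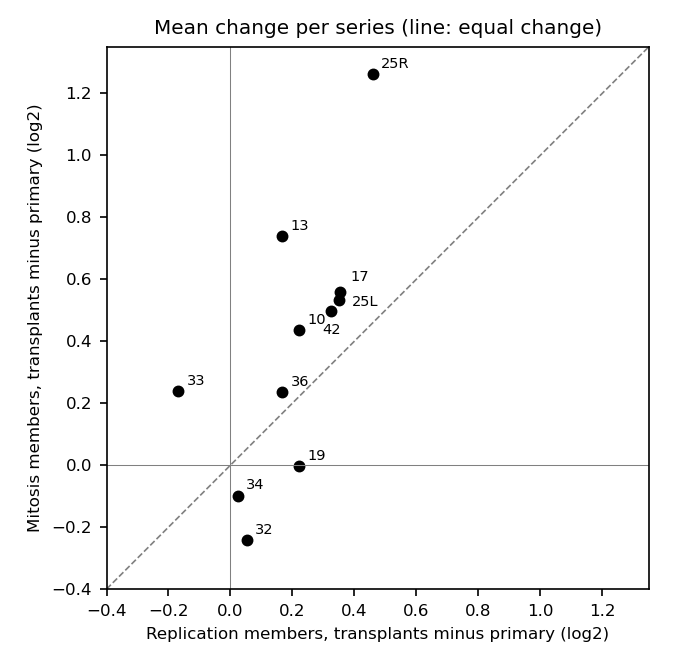
Mean log2 change from the primary tumor to the transplants of each series, for replication genes (x axis) and mitosis genes (y axis), with each point a series and the dashed line equal change. Series 25R lies highest (1.26), and 8 of 11 series lie above the line.

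The levels of mitosis genes also spread further. The median SD over the 65 arrays was 0.615 for mitosis genes, 0.392 for replication genes and 0.33 for all tested genes, and 0.538, 0.369 and 0.32 without both arrays that stood apart. Relative to its SE and with its sign kept, the median difference between transplants and primary tumors was 2.46 for mitosis genes and 1.77 for replication genes. For all genes it was 0.125, but 4501 of 8499 lay above 0, so rises and falls offset each other in that median. It does not give the size of a typical gene's change.

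Series accounted for more of the variance than generations did, in this set as in all tested genes (median shares of 43% and 6.06% for all). The shares were taken with series fitted first, and there are 11 series and 6 generations, so they are not on an equal footing. The test among the 11 series passed for 33 of 36 genes (91.7%, against 83.5% of all genes), all but Gins1, Rfc3 and Dut. Without series 42 it passed for 21 (66.9% of all genes): 8 of 16 mitosis genes, 11 of 18 replication genes and both G1 cyclins. Slopes over the transplants differed between series for 0 of 36 genes with limma (2 unadjusted), against 24.3% of all genes. With array weights, 17 of 36 passed that test, against 65.8% of all genes.

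Series 42 was highest in both groups, with a mean of 9.33 ± 0.24 (SD, n = 6) for mitosis and 8.80 ± 0.19 for replication, and series 32 lowest, with 7.91 ± 0.48 and 7.92 ± 0.35. Without its transplant 5 array series 32 was at 8.05 ± 0.35 for mitosis, still the lowest, and at 8.01 ± 0.31 for replication, above series 19 (7.94 ± 0.31) and series 17 (8.001 ± 0.25). The primary tumor of series 42 was already the highest of the 11 primary tumors, at 8.91 for mitosis beside 7.54 in series 13, the lowest. Most luminal markers were at or near the floor in series 42, as given above, and its macrophage marker sum was 11770 to 17880, where the other series reached from 3570 to 17900. Their part in these levels was not tested.

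The share of a gene's variance that lay between series was largest for Cks1b (75.9%), Rpa2 (72.4%), Fen1 (66.3%) and Mcm5 (58.5%). Cks1b was at 9.81 ± 0.10 (SD, n = 6) in series 42, followed by 9.45 ± 0.24 in series 34, and at 8.77 ± 0.30 in series 32. Rpa2 was at 8.23 ± 0.20 in series 42 and 7.17 ± 0.15 in series 17, and Fen1 at 8.38 ± 0.11 in series 42 and 7.02 ± 0.18 in series 10, both outside each other's spread. For Rpa2 the next series, 34 and 33, lay at 7.68 ± 0.23 and 7.67 ± 0.18 and did not differ beyond their spread. The share was smallest for Gins1 (16.9%), Rfc3 (24.6%), Dut (27.8%) and Prim1 (30.7%). Gins1 lay between 8.03 ± 0.25 in series 33 and 8.36 ± 0.06 in series 42. Rfc3 lay between 7.89 ± 0.36 in series 32 and 8.40 ± 0.14 in series 36, Dut between 8.57 ± 0.27 in series 25L and 9.14 ± 0.17 in series 42, and Prim1 between 7.10 ± 0.35 in series 32 and 7.67 ± 0.14 in series 42. Cks2 was at 10.47 ± 0.36 in series 42 and 9.49 ± 0.64 in series 34, the next. Ccnd1 was at 11.95 ± 0.07 in series 42 and 10.46 ± 0.78 in series 36. The median share was 46.1% for the 36 genes and 43% for all tested genes, and the median share between generations was 7.34% and 6.06%. Without the transplant 5 array of series 32, the share between series of Ccne1 went from 44% to 67.1%, above that of Mcm5 (57.9%), and the 4 lowest genes were still Gins1, Rfc3, Dut and Prim1. The medians over the 36 genes were then 46% between series and 9.4% between generations.

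**Figure D4:**
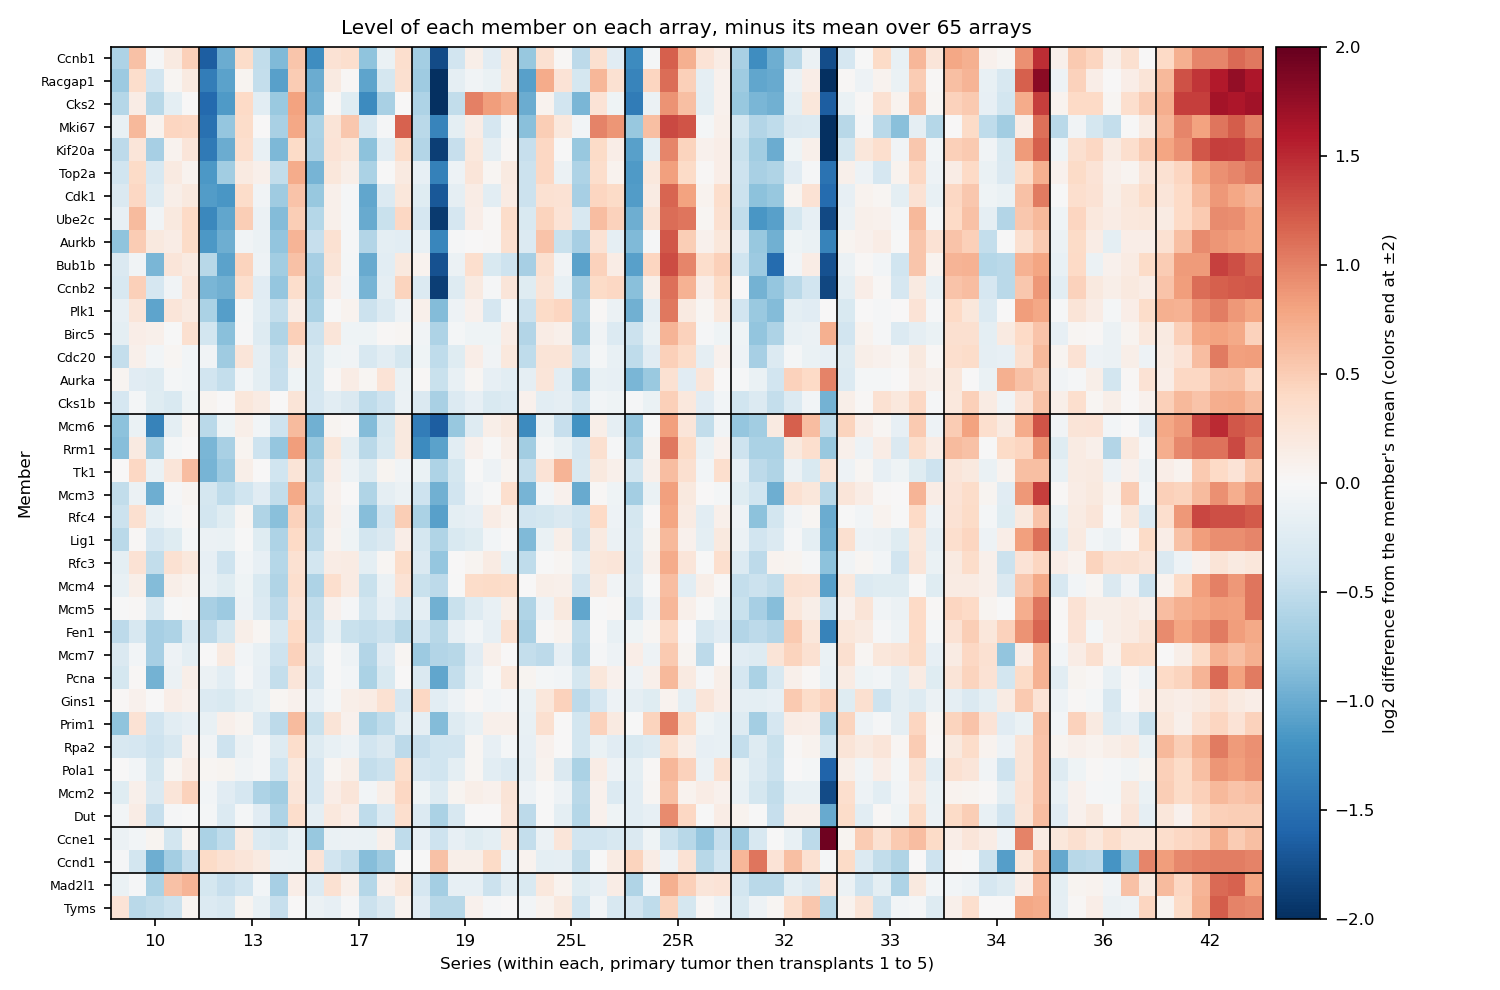
Log2 level of each of the 38 measured genes (rows) on each of the 65 arrays (columns, by series and generation), minus the gene's mean, with red higher and blue lower. Series 42 is red in nearly all rows, the transplant 1 column of series 19 and the transplant 5 column of series 32 are blue in most mitosis rows, and Ccne1, Aurka and Birc5 are red in the latter.

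Most of the genes correlated with each other from array to array. After series means were removed, the median correlation over the 65 arrays was r = 0.74 (Spearman's coefficient 0.75) among 120 pairs of mitosis genes, r = 0.68 (Spearman 0.68) among 153 pairs of replication genes, and r = 0.66 (Spearman 0.67) across 288 pairs of both. Without the transplant 1 array of series 19 and the primary array of series 25R, which lay farthest out, the medians were 0.72, 0.67 and 0.65. They were 0.80, 0.70 and 0.68 without the transplant 5 array of series 32. These are descriptions without a p, since the arrays share series and scaling and the genes were chosen for 1 process. Cdk1 followed the mean of the other mitosis genes most closely (r = 0.98), and with Ube2c alone it reached r = 0.97.

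Some genes followed their class less. Gins1 correlated with the mean of the other replication genes at r = 0.20 (Spearman 0.19, and r = 0.16 without the same pair of arrays), and with Aurka at r = 0.68. Aurka itself was at r = 0.40 with the mean of the other mitosis genes (Spearman 0.44, and r = 0.30 without the pair). Birc5 was at r = 0.62 with the other mitosis genes (Spearman 0.71) and Tk1 at r = 0.63 with the other replication genes (Spearman 0.67). Birc5 and Tk1 correlated with each other at r = 0.79. Ccnd1 and Ccne1 correlated with each other at r = -0.20 and with the mean of the mitosis genes at 0.10 and -0.001. Several of these low values rest in part on the transplant 5 array of series 32. Without it, Birc5 was at r = 0.84 with its class, Tk1 at 0.75, Aurka at 0.58 and Gins1 at 0.27, and Ccne1 was at 0.31 with the mean of the mitosis genes and at -0.09 with Ccnd1. Gins1 and Aurka were then at 0.66 with each other, and Birc5 and Tk1 at 0.78.

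**Figure D5:**
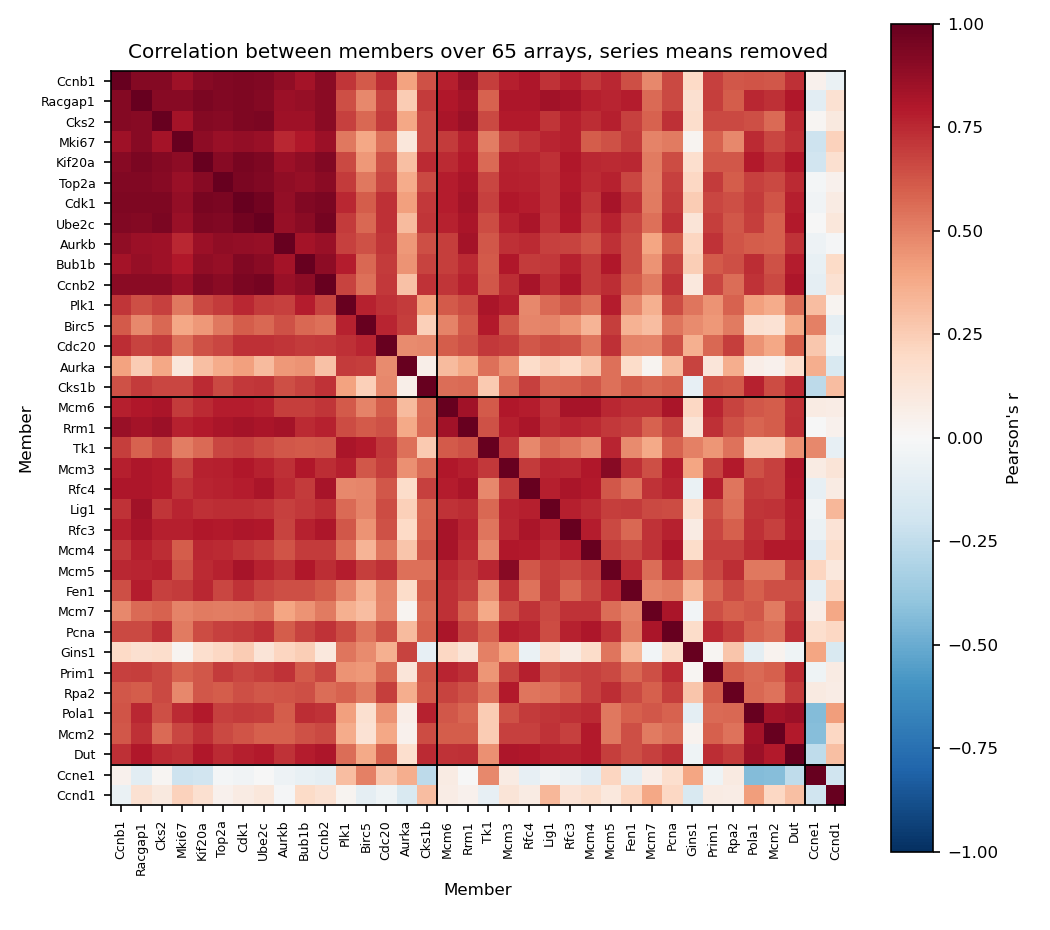
Pearson's r between each pair of the 36 tested genes over 65 arrays after series means were removed, with red positive and blue negative, and lines between the mitosis genes, the replication genes and the G1 cyclins. Gins1, Aurka, Ccne1 and Ccnd1 form pale rows, and most other cells are red.

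The 10 tested genes outside the set with the highest correlation to the mean of the mitosis genes over the 65 arrays were Melk (r = 0.96), Spc25 (0.96), Pttg1 (0.95), Cdkn3 (0.94), Spc24 (0.94), Cdca8 (0.94), Cdca3 (0.93), Iqgap3 (0.91), Pclaf (0.91) and Kif18b (0.91). Ncapd2 (0.91) took the place of Pclaf without the transplant 5 array of series 32. Of the 10, Spc25 (0.59 ± 0.17, adjusted p = 0.0194), Cdca8 (0.46 ± 0.14, adjusted p = 0.0333) and Kif18b (0.51 ± 0.14, adjusted p = 0.0164) rose in the transplants, where 4.44% of all tested genes rose. The other genes of the 10 did not pass. The 10 were picked for following the mitosis genes on these same arrays, with generation differences left in, so their rise is no separate evidence. Spc25, Cdca8 and Kif18b are also among the other mitosis genes counted next.

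Other genes of the pathway were counted from lists written for this work. Of 25 other tested mitosis genes, 11 rose and 0 fell over all transplants, and 15 rose at transplant 5, where 4.44% and 7.37% of all tested genes rose. Mybl2, the factor B-Myb that joins the MuvB complex, rose by 0.61 ± 0.11 (adjusted p = 0.000188) and Cdc25b, a phosphatase that activates cyclin-dependent kinases, by 0.65 ± 0.14 (adjusted p = 0.00194), each in 11 of 11 series. At transplant 5 Cdc25b rose by 1.11 ± 0.19. The slope per transplant passed upward for 3 of the 25 (Cdc25b, Ncapd2 and Mybl2), and for 0 of 27 other replication genes, of which 1 passed downward (Shmt1). Of all tested genes, 2.04% passed upward and 2.79% downward. The test among generations passed for 4 of the 25 and 0 of the 27, against 4.79% of all genes. Of 27 other replication genes, 4 rose (Gins4, Rpa3, Asf1b and Nasp) and 1 fell, the large clamp loader subunit Rfc1 (-0.24 ± 0.07, adjusted p = 0.0179), higher in 1 of 11 series, where 5.06% of all tested genes fell. Of the same 27, 5 rose and 0 fell at transplant 5, where 7.37% of all tested genes rose.

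Of 25 other G1 regulators and inhibitors, 1 rose and 1 fell, near the shares of all tested genes (4.44% and 5.06%). Ccne2, cyclin E2, rose by 0.46 ± 0.14 (adjusted p = 0.0307), and Rbl2, a pocket protein of the DREAM complex, fell by 0.40 ± 0.14 on the log2 scale (adjusted p = 0.0498), higher in 2 of 11 series. Cdkn2a, which encodes the inhibitor p16 and ARF, differed by -0.81 ± 0.34 (adjusted p = 0.12), Myc by -0.35 ± 0.16 and Cdkn1a, which encodes p21, by -0.19 ± 0.09 (adjusted p = 0.156). None of the 25 passed at transplant 5, where 8 had an unadjusted p under 0.05.

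Markers of the cell types in these tumors moved beside the set. Over all transplants, 3 of 12 luminal epithelium genes fell (Cldn3, Prom1 and Muc1), and 6 of 12 fell at transplant 5, where their median difference was -1.31. Of all tested genes, 5.06% and 6.72% fell. The luminal sum ranged from 819 to 27900 in primary tumors and from 844 to 18400 at transplant 5. Of 8 fibroblast genes 0 passed with limma (1 unadjusted), with a median difference of 0.49, and their sum ran from 1450 to 33800 in primary tumors and 5590 to 62400 at transplant 5. Of 6 basal, 5 endothelium, 9 macrophage, 6 T and NK cell and 2 adipocyte genes 0 passed over all transplants, and 1 of 5 muscle genes fell (Myh1). The other 4 muscle genes lay above 0 without passing, and the median difference of the 5 was 0.18. At transplant 5, 1 macrophage gene rose and 1 fell, 1 T and NK cell gene rose and 1 muscle gene fell. At an unadjusted p under 0.05 over all transplants, the basal, endothelium, macrophage, T and NK cell and adipocyte genes numbered 0, 0, 4, 1 and 0. Of 6 listed B and plasma cell genes, only 1 had a probe set of its own, and it was too dim to test. The Gapdh 3′ to 5′ log2 ratio had a median of 0.05 in primary tumors and 0.11 to 0.16 in the transplant generations. The part of cell makeup or RNA integrity in the results was not tested beyond the fit with the Gapdh ratio given above.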

How the data were processed

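Per the labels' protocols, total RNA of frozen tumors was made into biotin-labelled cRNA for Affymetrix arrays. The deposited values are intensities, 1 per probe set on a linear scale (1 to 12011). The authors' probe summary, background correction and scaling are not given in the sources used here, and no detection call was used. Arrays (65, in 11 series and 6 generations, per the titles) were scaled to a common median of 162.4. Values below the pooled 10th percentile (39.8) were set to it before log2. The probe set with the highest mean stood for its gene, and genes in the lowest 25% by mean level (below 6.35) were not tested, which left 8499 of 10411.

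All arrays entered 1 fit in limma 3.58.1 (R 4.3.3; lmFit, eBayes) with generation and series as factors, two-sided, Benjamini-Hochberg over all tested genes, threshold 0.05. Series served as a block because the design text describes lines of descent, and arrays correlated at a mean of 0.38 within series and -0.04 between series. Beyond the series term, the fit assumes no dependence between passages of a line. The script was tested on simulated data. The genes, lists and named-gene rule (all 48 genes accounted for, those past the threshold in full, and the extremes of variance share and correlation) were chosen with earlier results of these data known. Alternatives changed the block, normalization, floor, filter, probe set choice and weights, and left out arrays or series. Promoter sequences are RefSeq's (GRCr8). The number of arrays limits precision.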

Additional observations from a re-analysis of the deposited data

Results flagged for a closer look

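Dixon's criterion was applied to 60 groups of 4 to 10 arrays. These were the 36 tested genes at transplant 5, and the class means at transplant 5 and in each series. In 17 of them an array lay far from the rest of its group. In independent groups chance gives about 1 in 20, or 3. Here the genes correlate, the class means hold the same genes, and most of the 17 are 1 array. The 17 are thus not independent and cannot be weighed against the 3.

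At transplant 5, 16 were the series 32 tumor (n = 10). The mean of its mitosis genes was 7.18, against 8.45 to 9.45 in the other 9 tumors. Mki67 and Racgap1 were at the floor there, at 5.31, with the nearest tumor at 7.48 for Mki67 and 8.17 for Racgap1. Kif20a was at 5.42 (nearest 8.08), Ccnb1 at 6.50 (nearest 8.06), Aurkb at 6.98 (nearest 8.11) and Ccnb2 at 7.14 (nearest 8.81). Top2a was at 7.25 (nearest 8.62), Cks2 at 7.42 (nearest 8.97), Ube2c at 7.45 (nearest 9.22) and Cdk1 at 7.70 (nearest 9.10). Of the replication genes, Pola1 was at 5.65 (nearest 6.98), Mcm2 at 6.42 (nearest 7.94), Rfc3 at 7.32 (nearest 8.001) and Dut at 7.77 (nearest 8.61). Ccne1 went the other way, at 10.15, with the next tumor at 8.80.

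Within series 19 (n = 6), the mean of the mitosis genes was 7.09 at transplant 1, against 8.19 to 8.63 in the other tumors of that line.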

How the results depend on the processing

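Under 26 other settings, the median change of mitosis and of replication genes stayed above 0, from 0.28 to 0.46 and 0.14 to 0.21 over all transplants. At transplant 5 they ran from 0.37 to 0.70 and 0.17 to 0.35. Counts of called genes moved more, and the cause was not tested. Shares of all genes called are not set beside the counts below, so a change particular to this set is not shown. Over all transplants, the 8 calls became 0 with no replicate block, 2 with 1 value per series, 2 without rescaling, 1 with array weights and 1 with the Gapdh ratio, and 2 to 11 as each series was left out. At transplant 5, the 9 calls became 0 with no replicate block, 1 with 1 value per series, 0 without rescaling, 0 with array weights, 5 with the Gapdh ratio, 16 without the transplant 5 array of series 32, and 1 to 18 as each series was left out. For transplants 1 to 4 taken singly, the 4 genes called became 0 with no replicate block, 2 with series as a random block, 9 with 1 value per series, 1 without rescaling, 2 without a filter, 2 with array weights, 0 with the Gapdh ratio and 7 without the transplant 5 array of series 32, and 0 to 3 as each series was left out. Among generations, the 0 calls became 1 with the probe set of largest spread, 3 without the transplant 5 array of series 32 and 1 without the transplant 1 array of series 19 (a setting chosen after seeing the data), and 0 to 1 as each series was left out. Among series, the 33 calls became 21 to 34 as each series was left out, 21 being without series 42. Slopes among series went from 0 to 17 with array weights and 0 to 1 as each series was left out, and the slope from 0 to 1, the latter without series 25L. No difference of a named gene that was called in either setting changed sign. Without rescaling, the median of all genes at transplant 5 was -0.09, and 28.7% of all calls over the transplants were higher, against 46.7%. Ccnb1 was read from its second probe set under quantile normalization and without series 33, 34, 36 or 42, and its call was lost there.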
